A study of Arabidopsis thaliana with 8 samples.

Results

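Transcript levels were compared between wild-type Arabidopsis thaliana seedlings kept for 1 day in liquid medium with 20 uM SMIFH2 and seedlings kept in the same medium without it. SMIFH2 is a small molecule that inhibits the FH2 domain of formins, the part of these proteins that starts and lengthens actin filaments. The comparison used 4 of the 8 arrays of the series, 2 with SMIFH2 and 2 controls, and it covered 16554 genes. All of these seedlings were of the Columbia background and came from a wild-type sister line of the fh1-1 mutant. They grew for 6 days on vertical plates of solid MS medium under 16 h light and 8 h dark, and were then shaken in liquid MS medium under continuous light. Whole seedlings were harvested at 7 days in pools of about 120, and the arrays of a group are described as biological replicates. The sources used here do not say whether the controls received a solvent. The other 4 arrays held seedlings on solid medium for all 7 days, from fh1-1, a mutant of the membrane-anchored formin gene FH1, and from its wild-type sister. They served to estimate the spread between arrays and to set the SMIFH2 effect beside that of the mutation.

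Formins act where plant cells elongate, where dividing cells lay down new walls and where actin cables carry vesicles, and several of them also bind microtubules. Whole seedlings mix green cotyledons, hypocotyl and root. In RNA from whole seedlings, fewer cells of a type and less RNA per cell cannot be told apart. Values are log2 expression, so that a difference of 1 is a doubling, and each change is given with its standard error for 2 arrays per group. A gene was called when its adjusted p in limma was under 0.05 over all genes tested. With pools as replicates, these p-values measure the spread between the pools of this experiment.

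The arrays had median log2 values of 3.89 to 3.96. Across genes the 2 control arrays correlated at r = 0.988 and the 2 SMIFH2 arrays at r = 0.992, while control and SMIFH2 arrays correlated at 0.964 to 0.971. SMIFH2 arrays correlated with the fh1-1 arrays on solid medium at 0.990, as closely as arrays of 1 group, although medium, light and genotype differed. The 2 control arrays stood further apart than the SMIFH2 arrays, with 200 genes that differed by at least 1 between them against 67, and 11 against 1 that differed by at least 2. The median standard error of a change was 0.18, which gives a 95% interval of 0.40 on either side.

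In all, 2459 genes (14.9%) were called, of which 1288 (7.78%) were higher and 1171 (7.07%) lower with SMIFH2. The control and SMIFH2 arrays of all 2459 genes did not overlap, against 53.8% of all genes tested. The calls were made from these same arrays, so this adds no support to them. Of the called genes 565 rose at least 2-fold and 351 fell at least 2-fold, 93 and 47 changed at least 4-fold, and 27 and 8 at least 8-fold. The smallest change called was 0.47 and the median change called was 0.87 in size, while the median change of all genes was -0.02. Fewer genes were called when 1 array was left out, which also leaves 1 array in its group and so less power. The parts of single arrays and of lost power in this were not tested. Of the 4 arrays compared, the number called fell most without SMIFH2 array 1 and least without control array 2. In all 955 genes kept their call without any 1 of the 4 arrays. All 35 genes changed at least 8-fold kept it, as did 138 of the 140 changed at least 4-fold. Calls that held in these 4 fits are described below as kept. Gene lists below, other than those of the plastid and mitochondrial genomes, hold genes matched by symbol, synonym or locus code. They may miss members of a pathway, since 14750 of the 16554 genes had only a locus code in the annotation.

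The largest rise was that of THI2.2, a thionin of the antimicrobial peptide class. Its control arrays stood at 3.24 and 3.07 and its SMIFH2 arrays at 7.83 and 8.06, a rise of 4.79 ± 0.20 (adjusted p = 1.7e-06). Among the 27 genes of the defence list (11.1% called, against 14.9% of all genes) it was the only gene called higher. Relatives of THI2.2 that have no symbol may be missing from this list. On it, THI2.1 gave -0.07 and the defensin PDF1.2 -0.19, both at levels under 2 in the controls. AT1G70820, a locus with no symbol in the annotation, followed THI2.2 with a rise of 4.68 ± 0.25, from 3.91 and 3.30 to 8.36 and 8.21. AT2G23840 rose by 4.45 ± 0.16, from 2.22 and 2.58 to 6.83 and 6.87. In these 3 genes every SMIFH2 array lay far above both control arrays.

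AOP3, a dioxygenase that modifies glucosinolate side chains, rose by 4.11 ± 0.50. Its SMIFH2 arrays agreed at 8.14 and 8.12, but its control arrays stood apart at 2.96 and 5.07. The change was 3.06 without control array 1 and 5.16 without control array 2. AT5G33370 also had control arrays that stood apart, at 2.67 and 3.84, and rose by 3.96 ± 0.32 to 7.14 and 7.30. DFR, the dihydroflavonol reductase of anthocyanin synthesis, rose by 3.63 ± 0.22, from 2.64 and 2.91 to 6.33 and 6.47. PIF7, a transcription factor that binds phytochrome and acts in shade growth, rose by 3.58 ± 0.16, from 3.0 and 3.14 to 6.7 and 6.6. The remaining loci of the 12 largest rises have no symbol in the annotation. They were AT1G06100 (3.97 ± 0.22), AT1G66100 (3.69 ± 0.43), AT4G13575 (3.60 ± 0.21), AT5G24155 (3.59 ± 0.24) and AT1G15125 (3.58 ± 0.21). All 12 were kept, with adjusted p values from 1.7e-06 to 0.00059 in limma.

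The largest fall was that of AT2G47780, also a locus with no symbol in the annotation. Its control arrays stood at 7.72 and 7.40 and its SMIFH2 arrays at 2.59 and 2.78, a change of -4.88 ± 0.20 (adjusted p = 1.7e-06). AT4G25580 changed by -4.41 ± 0.17, from 6.85 and 6.54 to 2.28 and 2.29. Both SMIFH2 values of AT4G25580 were just above the 25th percentile of the arrays, which lay between 2.13 and 2.24. FLP1 (-4.03 ± 0.28) and AT5G44440 (-3.65 ± 0.33) fell from control levels of 6.27 and 5.38, and of 5.75 and 4.81, to SMIFH2 levels under that percentile. AT3G18530 fell in the same way, by 3.50 ± 0.28 on the log2 scale, from 5.73 and 4.99 to 2.01 and 1.72. The SMIFH2 group of FLP1, AT5G44440 and AT3G18530 was thus among the dimmest values of the arrays, where a level has little meaning.

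MGL, a lyase that degrades methionine, changed by -3.87 ± 0.19, from 8.49 and 7.99 to 4.38 and 4.36. AT4G33150, annotated as LKR/SDH, the bifunctional enzyme that starts lysine breakdown, changed by -2.83 ± 0.16, from 9.10 and 9.21 to 6.31 and 6.35. It was the most abundant of the 12 largest falls. The other 5 were AT1G19530 (-3.93 ± 0.20), AT5G02580 (-3.60 ± 0.20), AT1G21400 (-2.98 ± 0.18), AT4G10860 (-2.97 ± 0.21) and AT2G41190 (-2.87 ± 0.22). The SMIFH2 arrays of AT4G10860, at 1.59 and 1.96, were under the 25th percentile too. All 12 falls were kept, at adjusted p values from 1.7e-06 to 0.00010.

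**Figure D1:**
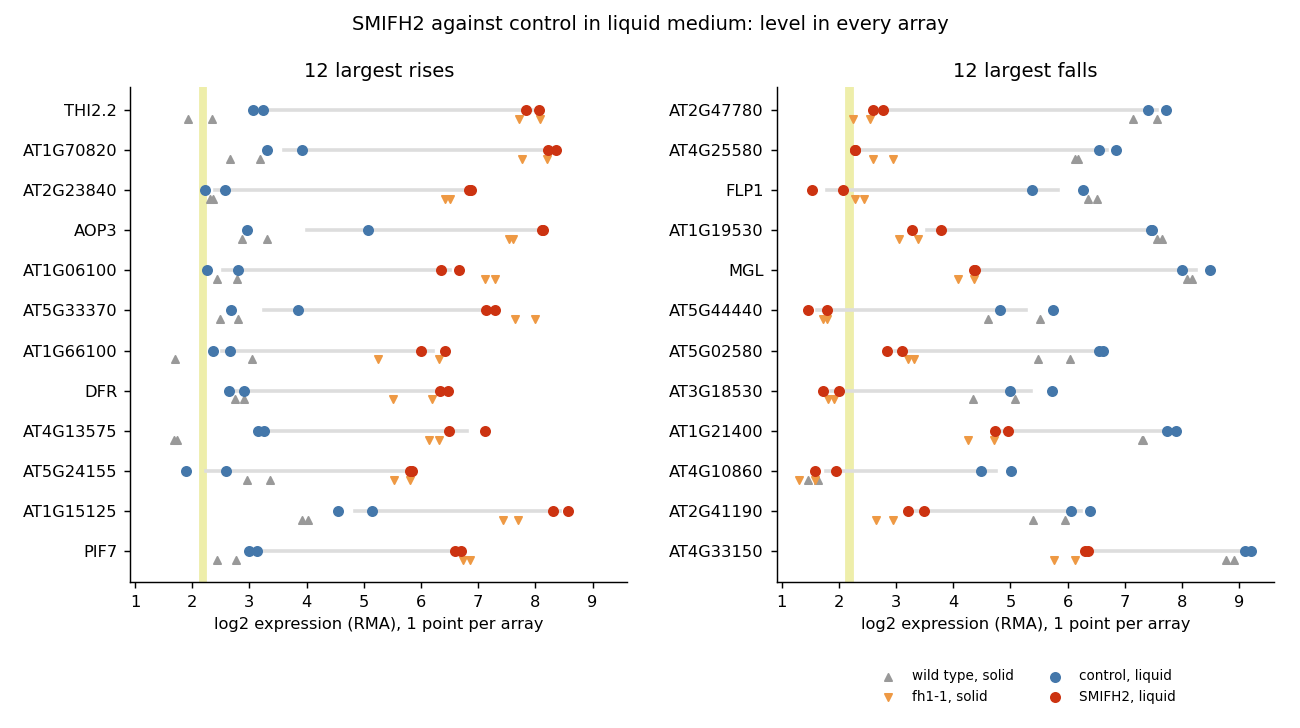
Log2 expression (x axis, RMA values) of the 12 genes with the largest rises (left) and the 12 with the largest falls (right) in every array. Blue points are control and red points SMIFH2 arrays in liquid medium, a grey bar joins their means, grey and orange triangles are wild-type and fh1-1 arrays on solid medium, and the yellow band spans the 25th percentiles of the arrays, 2.13 to 2.24. Blue and red points are apart in all 24 genes because the choice of these genes required it. AOP3 shows the widest gap between its control arrays, 2.96 and 5.07.

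Genes with only a locus code made up most of the calls, as they made up most of the genes tested. Of the 2459 genes called, 2112 had only a locus code in the annotation, which were 14.3% of the 14750 such genes, against 19.2% of the 1804 genes with a symbol. Nearly all were protein-coding in RefSeq, and of the 3 long noncoding RNAs measured 1 was lower and 0 higher. When genes were ranked by mean level into 3 classes of 5518, the share called was 1.98% in the lowest class, 16.6% in the middle and 26% in the highest. The lowest class ended at a level of 2.42. The median standard errors of the classes were close, 0.18, 0.19 and 0.17. The share called was 16%, 15.4%, 13.4%, 15% and 14.6% on chromosomes 1 to 5.

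Neighbours on a chromosome were called together in 250 of the 10257 adjacent pairs in which both genes were measured, or 2.44%. With 14.9% of single genes called, this share shows nothing particular to neighbours. Of these 250 pairs 153 moved the same way and 97 opposite ways, and in 36 of the 153 both genes changed at least 2-fold. The only run of 3 such genes was AT2G29290, AT2G29300 and AT2G29310, which rose by 2.22, 1.12 and 1.86. AT1G19530, among the largest falls, lies beside AT1G19540, which changed by -2.54. AT5G54720 (2.94) and its neighbour AT5G54710 (1.91) both rose, as did AT4G19530 (3.39) and AT4G19520 (1.05). Neighbours of similar sequence can share probes, and this was not tested.

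**Figure D2:**
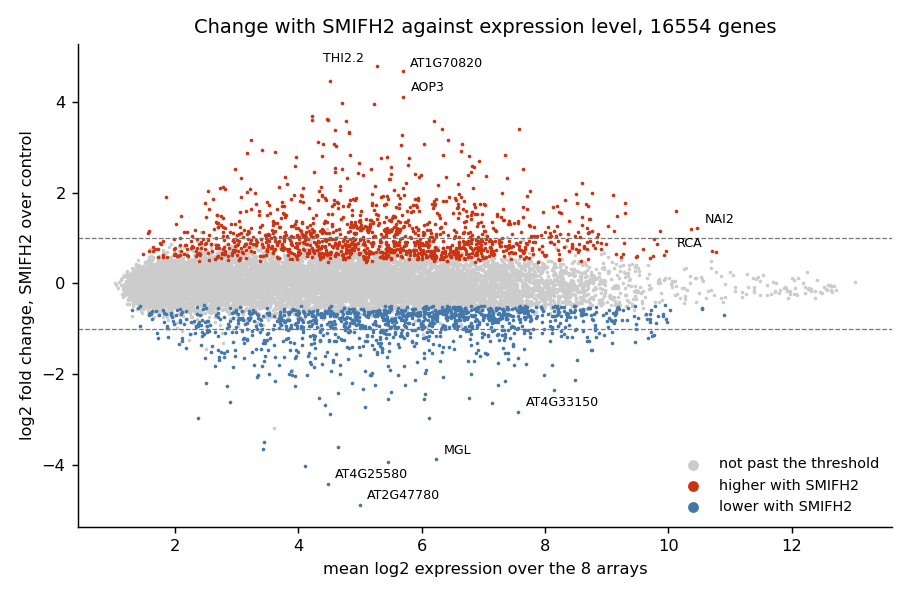
Log2 fold change of SMIFH2 over control (y axis) against mean log2 expression over the 8 arrays (x axis), with 1 point per gene for 16554 genes; red and blue points are called genes, and dashed lines mark a 2-fold change. Called genes thin out below a level of 2.42, where 1.98% were called, and none of the genes above a level of about 11 was called.

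Most listed nuclear genes of the chloroplast light reactions were higher with SMIFH2. Of 13 photosystem and antenna genes 8 rose and 0 fell (61.5% called, against 14.9% of all genes). The median change was 0.92 against -0.02 over all genes, and 6 of the 8 were kept. PSAN, a lumenal subunit of photosystem I, rose by 2.00 ± 0.16, from 8.11 and 7.95 in the controls to 9.94 and 10.12. The thylakoid curvature proteins CURT1A (AT4G01150) and CURT1C (AT1G52220) rose by 1.76 ± 0.16 and 1.65 ± 0.15, whereas CURT1D (AT4G38100) gave 0.22 and was not called. PSBW (1.59 ± 0.15) and PSBY (0.66 ± 0.17), small subunits of photosystem II, PSAE-1 of photosystem I (1.16 ± 0.15), and LHB1B2, a chlorophyll-binding antenna protein (1.54 ± 0.18), rose as well. PSBY lost its call whichever of the 4 arrays was left out, and the light-harvesting-like protein LIL3:1 (0.92 ± 0.17) without SMIFH2 array 1, where its adjusted p was 0.052. The 3 antenna genes LHCB4.1, LHCB4.2 and LHCB4.3 gave 0.58, 0.41 and 0.46, and LIL3:2 gave -0.41. None of these 4 was called.

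The NDH complex of the thylakoid carries electrons around photosystem I, and 7 of the 8 nuclear genes listed for it rose, all of them kept. That was 87.5% of the list, against 14.9% of all genes called. NdhU, a subunit, showed the largest change, 2.61 ± 0.19, from 4.79 and 4.30 to 7.29 and 7.01. The subunits NdhL (1.56 ± 0.16) and NdhN (1.21 ± 0.16) and PIFI (1.52 ± 0.15), a protein needed for the activity of the complex, followed. CRR21 (0.99 ± 0.16) and CRR22 (0.94 ± 0.17), which edit its plastid transcripts, and the assembly factor CRR42 (1.05 ± 0.17) rose too. CRR41, another assembly factor, gave 0.60 ± 0.21 (adjusted p = 0.082). The median change of the 8 genes was 1.13.

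All 4 genes listed for carbon fixation and photorespiration rose (100% called, against 14.9% of all genes) and were kept, with a median of 1.17. They were SBPASE (1.77 ± 0.15) and PRK (0.78 ± 0.14) of the Calvin cycle, RCA (1.20 ± 0.14), the activase of Rubisco, and HPR (1.15 ± 0.18), the hydroxypyruvate reductase of photorespiration. RCA was among the brightest genes that rose, from 9.85 and 9.92 to 11.07 and 11.09. Of 21 thioredoxins and related redox proteins 6 rose and 0 fell (28.6% called, against 14.9% of all genes), and 5 of the 6 were kept. They were led by MSRB6, a methionine sulfoxide reductase (3.38 ± 0.22, from 3.22 and 2.53 to 6.38 and 6.12). TRXF2, a plastid thioredoxin that activates Calvin cycle enzymes, rose by 2.81 ± 0.25, from 5.09 and 5.97 to 8.28 and 8.40. The others, also of plastid types, were thioredoxin x, THX (1.51 ± 0.15), thioredoxin y2, ty2 (1.32 ± 0.20), the glutaredoxin GrxC5 (1.26 ± 0.16) and thioredoxin m2, ATHM2 (0.62 ± 0.17), the last at 0.41 (adjusted p = 0.22) without SMIFH2 array 2 and also lost without either control array. Of 9 genes of chlorophyll and carotenoid synthesis, HEME1 (1.12 ± 0.15) and HEME2 (0.87 ± 0.21), which encode uroporphyrinogen decarboxylases, were higher. That was 22.2% of the list, against 14.9% of all genes. HEME2 gave 0.57 at an adjusted p of 0.13 without control array 1 and was lost without either SMIFH2 array too.

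Genes encoded in the plastid genome did not rise with them. Of 63 measured, 1 was higher and 2 were lower (4.76% against 14.9% of all genes), and the median change was -0.10. The 5 photosystem I genes ranged from -0.23 to -0.13, the 10 NDH genes from -0.24 to 0.18, the 6 cytochrome b6f genes from -0.22 to 0.12 and the 4 ATP synthase genes from -0.10 to 0.08. These genes were among the brightest on the arrays, with levels from 9.02 to 13.03, and their median standard error was 0.15, below that of all genes. Many of these small changes turned sign under other settings. The 3 exceptions were ccsA, needed for cytochrome c assembly (0.70 ± 0.14), psbN (-1.21 ± 0.27), which serves photosystem II assembly, and the ribosomal gene rpl33 (-0.71 ± 0.19). None of the 3 was kept. RNA of plastid genes largely lacks a poly(A) tail, and how the labelling treated such RNA is not given in the sources used here. Of 15 mitochondrial genes 1 was higher (6.67% called, against 14.9% of all genes), ccb382 (0.64 ± 0.15), which also was not kept.

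**Figure D3:**
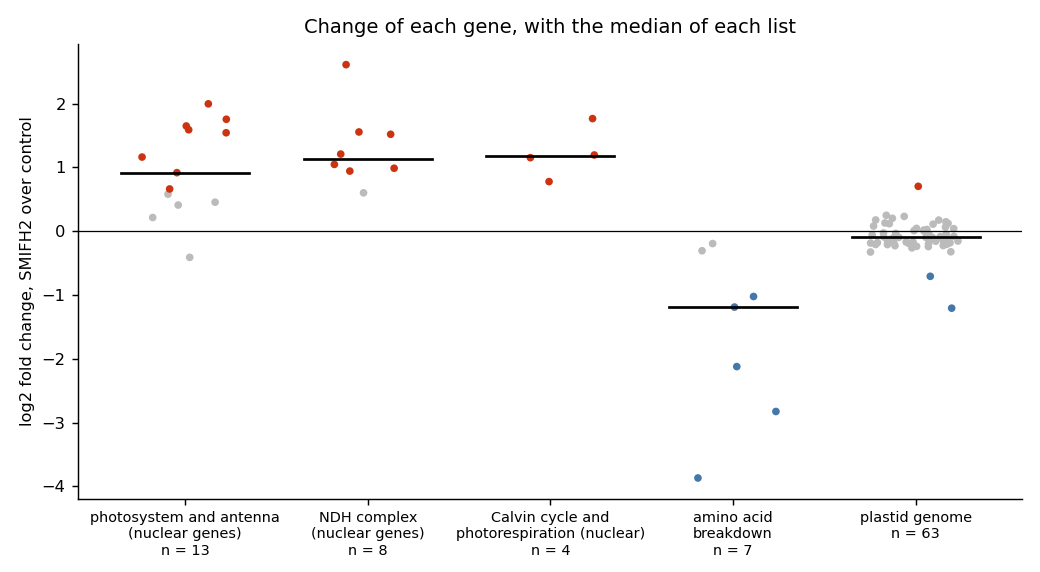
Log2 fold change of SMIFH2 over control (y axis) for each measured gene of 5 groups (x axis); red and blue points are genes called higher and lower, grey points were not called, and black lines are medians. The 3 nuclear photosynthesis groups have medians of 0.92, 1.13 and 1.17, the amino acid breakdown genes -1.19 and the 63 plastid genes -0.10.

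Listed genes that break down amino acids were mostly lower. Of the 7 listed, 5 fell and 0 rose (71.4% called, against 14.9% of all genes), with a median of -1.19, and all 5 were kept. Beside MGL and AT4G33150 these were ALDH7B4, an aldehyde dehydrogenase (-2.12 ± 0.15, from 9.66 and 9.44 to 7.41 and 7.45), MCCB of leucine breakdown (-1.19 ± 0.15) and ALDH6B2 of valine breakdown (-1.02 ± 0.15). The asparaginases ASPGA1 and ASPGB1 gave -0.19 and -0.31 and were not called. ICL, the isocitrate lyase of the glyoxylate cycle, changed by -2.24 ± 0.31 from control arrays of 9.13 and 7.96, and by -1.65 without control array 1 and -2.83 without control array 2. The other 3 genes of that list, all of fat breakdown, stayed within 0.04 of 0.

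Members of the sugar starvation list moved both ways, and 36% were called, against 14.9% of all genes. Of 25 genes 5 were lower, among them ATL8, a ubiquitin ligase (-1.81 ± 0.29), MCCB, and ETFQO, which passes electrons from amino acid breakdown to the respiratory chain (-1.06 ± 0.16). The lower AKINBETA1 (-0.66 ± 0.18), a subunit of the SnRK1 energy-sensing kinase, and the alpha-amylase AMY1 (-0.60 ± 0.17) were not kept. The 4 that were higher are sugar transporters of the SWEET family, SAG29 (1.53 ± 0.25, from 3.87 and 3.03 to 4.96 and 5.0), SWEET13 (1.03 ± 0.19), SWEET10 (0.85 ± 0.17) and SWEET16 (0.75 ± 0.22). SAG29 and SWEET13 were kept. SWEET10 was lost without control array 1 or SMIFH2 array 1 (highest adjusted p 0.072), and SWEET16 gave 0.41 (adjusted p = 0.20) without control array 2 and was lost without either SMIFH2 array too.

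**Figure D4:**
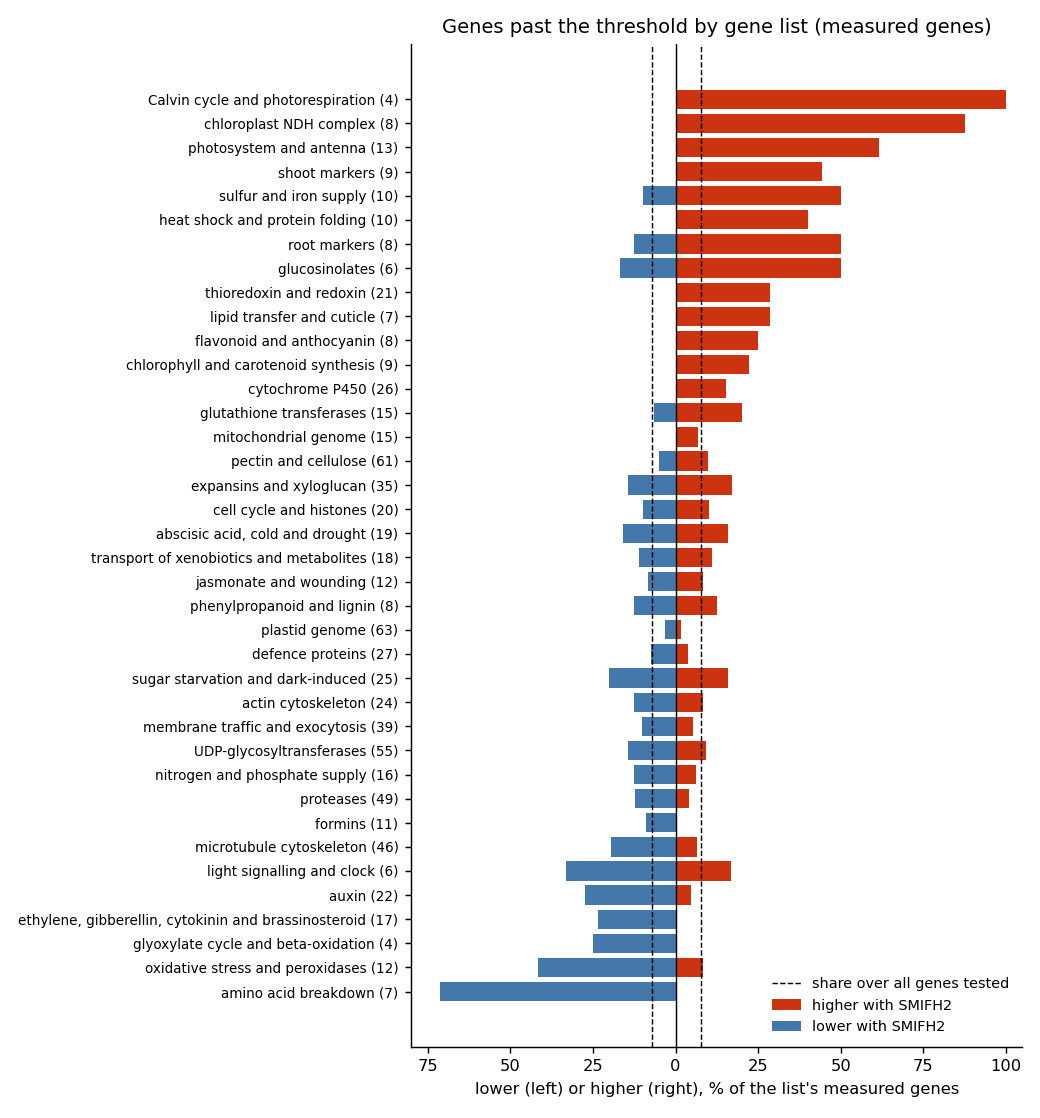
Share of the measured genes of each list that was called higher (red, to the right) or lower (blue, to the left) with SMIFH2, in percent (x axis), for lists with at least 4 measured genes; the number measured is in parentheses, and dashed lines mark the shares over all genes tested, 7.78% and 7.07%. Carbon fixation and the NDH complex reach 100% and 87.5% higher, amino acid breakdown 71.4% lower, and the plastid genome lies under both lines.

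Glutathione transferases join glutathione to reactive or foreign molecules. Of 15 measured 3 were higher and 1 was lower (26.7% called, against 14.9% of all genes), all kept. GSTU20 rose by 3.08 ± 0.26, from 5.15 and 5.86 to 8.57 and 8.59, GSTU18 by 1.74 ± 0.15 and GSTL3 by 1.49 ± 0.17, while GSTF3 fell by 1.48 ± 0.19 on the log2 scale. Of 55 UDP-glycosyltransferases, which attach sugars to small molecules, 5 were higher and 8 lower (23.6% called, against 14.9% of all genes). Those that rose were led by UGT73C6 (1.71 ± 0.21), UGT84A3 (1.18 ± 0.16) and UGT73C1 (1.13 ± 0.19), and 4 of the 5 were kept. None of the 8 that fell was kept, and their changes lay between -0.89 (UGT76E12) and -0.52 (UGT73B5). Of 26 cytochrome P450 genes 4 were higher and 0 lower, all 4 from the CYP71B family, and CYP71B35 (1.12 ± 0.17) was the only gene of the 4 that was kept. At 15.4% the share of this list called was near the 14.9% of all genes.

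Among 8 flavonoid genes DFR and CHIL, a protein that aids the first steps of the pathway (1.60 ± 0.17, from 2.66 and 2.48 to 4.31 and 4.03), rose and were kept. That was 25% of the list, against 14.9% of all genes called. The anthocyanin glycosyltransferase UF3GT gave 0.76 (adjusted p = 0.069) and UGT78D2 gave 0.66 (adjusted p = 0.19). Of 6 glucosinolate genes AOP3, GSTU20 and UGT74B1 (0.65 ± 0.15) were higher and the transporter GTR2 (-0.58 ± 0.16) was lower. Called were 66.7% of this list, against 14.9% of all genes, and AOP3 and GSTU20 were kept. Of 10 genes of sulfur and iron supply 5 were higher and 1 was lower (60% called, against 14.9% of all genes). The metallothionein MT1C rose by 1.37 ± 0.23, APS3, which activates sulfate, by 1.25 ± 0.15, and BHLH101, a regulator of iron uptake, by 1.12 ± 0.19, and these 3 were kept. Sulfite reductase, SIR (0.89 ± 0.18), was lost without control array 1 or SMIFH2 array 2 (highest adjusted p 0.054) and BGLU28 (0.59 ± 0.17) whichever of the 4 arrays was left out. OASA2, of cysteine synthesis, changed by -1.39 ± 0.16.

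Formins act on the cytoskeleton, and its genes moved in both directions. Of 24 actin genes 2 were higher and 3 lower (20.8% called, against 14.9% of all genes), with a median of -0.08. NET1D, an actin-binding membrane-associated protein, changed by -0.78 ± 0.14, from 7.03 and 7.11 to 6.35 and 6.24, and the actin-bundling LIM protein WLIM2b by -0.77 ± 0.14, from 8.14 and 8.16 to 7.38 and 7.39. Both were kept, whereas PLIM2b (-0.73 ± 0.15), NET3C (0.78 ± 0.15) and the actin ACT11 (0.71 ± 0.19) were not. PLIM2b and NET3C missed the threshold only without SMIFH2 array 1 (adjusted p = 0.070 and 0.055), and ACT11 without control array 2 or SMIFH2 array 2, or in a fit of the 4 arrays alone. The 5 myosin XI genes measured, XIC, XIE, XIH, XI-I and XIJ, lay between -0.27 and 0.02 and were not called.

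Of 46 microtubule genes 9 were lower and 3 higher (26.1% called, against 14.9% of all genes), with a median of -0.10. IQD22, of a family of calmodulin-binding microtubule proteins, showed the largest change, -1.75 ± 0.20, from 8.44 and 8.22 to 6.77 and 6.39. Its relatives IQD24 (1.22 ± 0.20) and iqd21 (1.07 ± 0.17) rose, and these 3 and the beta-tubulin TUB9 (-0.93 ± 0.16) were the 4 genes kept. The other lower genes were TUB6 (-0.72 ± 0.15), IQD18, IQD26, TRM25, TRM26, TRM27 and TRM28, with changes from -1.08 (TRM28) to -0.62 (TRM27), and TRM15 was higher (0.84 ± 0.20). TRM proteins bring a protein complex to the microtubules that set the division plane.

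Of 11 loci listed as formins, 1 was lower and 0 higher (9.09% called, against 14.9% of all genes), with a median of 0.00. These loci were entered from general knowledge of the family, since the annotation gives their codes only, and no probe set was listed for FH1. AT2G25050 changed by -0.79 ± 0.17, from 5.87 and 5.80 to 4.97 and 5.11, and lost its call without control array 1 or SMIFH2 array 1. These are values of the brighter of its 2 probe sets, and under other settings its change lay between -0.86 and -0.53. AT5G48360 gave 0.50 ± 0.26, AT5G07650 0.45 ± 0.31, AT2G43800 0.35 ± 0.23 and AT1G59910 0.27 ± 0.20. AT5G07760 gave -0.66 ± 0.32 and AT5G58160 -0.48 ± 0.22, with adjusted p values of 0.23 and 0.19. AT1G42980 gave 0.03, AT3G05470 0.00, AT3G32400 -0.02 and AT3G07540 -0.05, and these 4 turned sign under other settings. The control and SMIFH2 arrays of AT5G07760 overlapped, at 3.68 and 2.86 against 2.98 and 2.23. Of 39 genes of membrane traffic 2 were higher and 4 lower, none kept. Their share called, 15.4%, is near the 14.9% of all genes, and the largest changes were those of the ESCRT gene VPS2.2 (0.73 ± 0.19) and of SEC1B (-0.73 ± 0.16), a regulator of vesicle fusion.

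Genes that loosen or remodel the cell wall moved in both directions. Of 35 expansins and xyloglucan endotransglucosylases 6 were higher and 5 lower (31.4% called, against 14.9% of all genes). The expansin EXPB3 rose by 2.46 ± 0.17, from 5.01 and 5.30 to 7.49 and 7.75, and EXPA15 by 1.74 ± 0.15, from 4.44 and 4.64 to 6.27 and 6.29. EXPA16 moved the other way, by -2.40 ± 0.16, from 5.85 and 6.05 to 3.51 and 3.58, and EXPA9 by -1.34 ± 0.18. The xyloglucan genes XTH19 (-1.33 ± 0.18) and XTH33 (-1.17 ± 0.19) fell as well. These 6 were kept, and EXPA18 (1.22 ± 0.27), XTH21 (1.03 ± 0.27), EXPA7 (0.97 ± 0.22), EXLA1 (0.73 ± 0.16) and XTH18 (-0.91 ± 0.22) were not. XTH21 gave 0.67 (adjusted p = 0.18) without control array 1, and EXPA7 0.64 (adjusted p = 0.074) without control array 2.

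Of 61 pectin and cellulose genes 6 were higher and 3 lower, 14.8% against 14.9% of all genes. The endoglucanase GH9C1 rose by 1.94 ± 0.31 from control arrays of 3.38 and 2.21 that stood apart, to 4.79 and 4.69. TBL45 (0.98 ± 0.14) and TBL36 (0.97 ± 0.16), of a family that acetylates wall polysaccharides, were kept with it. The pectin methylesterase gene ATPMEPCRB (-1.49 ± 0.18) and the endoglucanase GH9B13 (-1.18 ± 0.16) fell and were kept, as did TBL37 (-1.15 ± 0.21).

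Most auxin genes that changed were lower. Of 22 measured 6 fell and 1 rose (31.8% called, against 14.9% of all genes), with a median of -0.21. The repressor IAA20 changed by -1.83 ± 0.23, from 4.04 and 3.73 to 1.80 and 2.31, and WAG2, a kinase that directs auxin transporters, by -1.64 ± 0.18, from 2.86 and 3.32 to 1.45 and 1.44. Their SMIFH2 levels lay near or under the 25th percentile of the arrays. GH3.3 (-1.14 ± 0.18) and WES1 (-0.92 ± 0.17), which join auxin to amino acids, LBD16 of lateral root formation (-0.78 ± 0.15) and the repressor IAA29 (-1.17 ± 0.34) were lower. GH3.9 of the same enzyme family as GH3.3 rose by 2.12 ± 0.16, from 1.65 and 1.81, both under that percentile, to 3.79 and 3.91. GH3.9, IAA20, WAG2 and GH3.3 were kept. WES1 missed the threshold without SMIFH2 array 1 (adjusted p = 0.051), LBD16 without control array 1 or SMIFH2 array 2 (highest 0.052), and IAA29 whichever of the 4 was left out (highest 0.20).

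Of 17 genes of ethylene, gibberellin, cytokinin and brassinosteroid signalling 4 were lower and 0 higher (23.5% called, against 14.9% of all genes). They were BRH1, a RING protein that responds to brassinosteroid (-1.05 ± 0.19), the brassinosteroid receptor BRL1 (-0.88 ± 0.23), EIN3, the main ethylene transcription factor (-0.82 ± 0.14, from 9.52 and 9.50 to 8.62 and 8.75), and the gibberellin receptor GID1C (-0.75 ± 0.17). BRH1 and EIN3 were kept. Jasmonate genes showed OPCL1, of jasmonate synthesis, higher (1.18 ± 0.15) and the defensin PDF1.4 lower (-1.13 ± 0.22) among 12 measured. The share called, 16.7%, is near the 14.9% of all genes. Among genes that respond to abscisic acid, cold or drought 3 of 19 were higher and 3 lower (31.6% called, against 14.9% of all genes). COR15A, a chloroplast protein that protects membranes in the cold, rose by 2.09 ± 0.20, from 3.13 and 2.52 to 4.84 and 4.99. Its close copy COR15B, at 1.01 and 1.29 in the controls, gave 0.07, and the cold genes KIN2 (0.08), KIN1 (0.06) and COR47 (0.02) stayed near 0. COR27, a cold-induced regulator of the circadian clock, moved the other way, by -2.72 ± 0.17, from 6.53 and 6.19 to 3.75 and 3.52. The clock gene GI, in contrast, gave -0.16 ± 0.26 (adjusted p = 0.75). DI19 (-1.07 ± 0.15) and RD2 (-0.72 ± 0.15) were lower, RD2 not kept.

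Of 10 heat shock and folding genes 4 were higher and 0 lower (40% called, against 14.9% of all genes). AT5G48570, annotated as ROF2 or FKBP65, a heat-induced immunophilin, rose by 1.94 ± 0.14, from 3.41 and 3.37 to 5.38 and 5.28. The other 3 encode beta subunits of the chloroplast chaperonin, Cpn60beta2 (1.45 ± 0.17), Cpn60beta4 (1.25 ± 0.18) and Cpn60beta3 (0.86 ± 0.17, not kept). The size of the Cpn60beta4 rise depended on the processing, with 0.61 as its lowest value under other settings. Hsp70-2 gave -0.77 (adjusted p = 0.077) and BIP1 of the endoplasmic reticulum 0.01. In the list of oxidative stress genes and peroxidases 5 of 12 were lower and 1 higher (50% called, against 14.9% of all genes). TAPX, the thylakoid ascorbate peroxidase, rose by 1.15 ± 0.17, and the wall peroxidase Prx37 changed by -1.72 ± 0.28, from 7.62 and 7.75 to 5.84 and 6.10, and both were kept. CCS, the copper chaperone of superoxide dismutase (-1.15 ± 0.22), was lost without SMIFH2 array 2 (adjusted p = 0.053). UPB1, a repressor of root peroxidases (-0.94 ± 0.26), gave -0.51 (adjusted p = 0.19) without control array 1 and was lost without either SMIFH2 array too.

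Of 49 proteases 6 were lower and 2 higher, a share of 16.3% that is near the 14.9% of all genes. The subtilisin-like protease ATSBT5.2 (-1.46 ± 0.17), the carboxypeptidases scpl35 (-1.10 ± 0.18) and scpl29 (0.94 ± 0.15) and CLPP4 of the plastid Clp protease (1.05 ± 0.14) were kept. Of 20 cell cycle and histone genes 2 were higher and 2 lower (20% called, against 14.9% of all genes). SIM, a cell cycle inhibitor that promotes endoreduplication, changed by -0.94 ± 0.17, and the linker histone HIS1-3 by -1.50 ± 0.29, and both were kept, whereas the mitotic BUBR1 (1.03 ± 0.23) and AUR1 (0.73 ± 0.16) were not. Smaller lists held FER, a receptor kinase of wall sensing (-0.70 ± 0.15, not kept), DEWAX (AT5G61590), a repressor of wax synthesis (1.41 ± 0.19, kept), and the lignin enzyme CCR2 (0.76 ± 0.17, not kept). In the nitrate and peptide transporter family NPF6.4 (AT3G21670) rose by 1.38 ± 0.18 and NPF6.2 (AT2G26690) changed by -0.86 ± 0.15, from 10.36 and 10.58 to 9.66 and 9.57, both kept. Among the brightest genes, AT3G47650 (0.69 ± 0.15) was higher and AT2G07773 (-0.57 ± 0.16) and AT5G44020 (-0.53 ± 0.16) were lower, and none of these 3 was kept. NAI2, a protein of endoplasmic reticulum bodies, was the gene with the highest mean over all 8 arrays among those kept, with a rise of 1.21 ± 0.17 from 9.63 and 9.61 to 10.93 and 10.73.

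Markers of the seedling's parts were present. PYK10, an abundant root beta-glucosidase, stood at 11.95 and 11.97 in the controls and RCA at 9.85 and 9.92, so root and green tissue were both in the pools. The 8 root markers had a mean level of 7.36 and 7.35 in the control arrays and 7.76 and 7.79 in the SMIFH2 arrays. Of these 8, 4 were higher and 1 was lower, and none of the 5 was kept. Called were 62.5% of this list, against 14.9% of all genes. EXPA7 of root hairs (0.97 ± 0.22), JAL22 (0.90 ± 0.18), BGLU21 (0.73 ± 0.21) and JAL33 (0.53 ± 0.16) were higher, and the root peroxidase AT5G66390, annotated as PRX72 (-0.61 ± 0.15), was lower. The 9 shoot markers had a mean level of 6.62 and 6.73 in the controls and 7.18 and 7.32 with SMIFH2. The 4 shoot markers that rose are the 4 genes of carbon fixation and photorespiration above. The leaf and stomatal regulators YAB2 (-0.34), YAB3 (-0.21), FMA (0.06), MUTE (0.21) and SPCH (0.51) were not called. The part of tissue composition in the higher photosynthesis genes was not tested. Of the 2 seed markers OLEO3 was lower (-1.11 ± 0.25, not kept), and M17 gave -1.90 ± 0.63 (adjusted p = 0.076), and the 2 flower and pollen markers measured, AGL24 and VGD1, were dim, AGL24 at 2.36 and 2.39 and VGD1 at 2.04 and 1.44 in the controls.

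In the comparison of fh1-1 with wild type on solid medium 3734 genes (22.6%) were called. Of the 2459 genes called with SMIFH2, 1719 were called in the same direction in fh1-1, which is 69.9% of the SMIFH2 calls and 46.0% of the fh1-1 calls, and 22 were called in opposite directions. Across all genes, which are not independent replicates, the effects correlated at r = 0.744 (Spearman 0.594). The 2 effects share no array, but both tests used 1 estimate of spread per gene from all 8 arrays. The 2 sets of calls are therefore not independent. A direct comparison of SMIFH2 arrays with fh1-1 arrays, which differ in medium and light too, called 24 genes (0.145%). The SMIFH2 and fh1-1 arrays were also closer to each other than either was to its own control. The labels name no batch, and no probe set listed for FH1 could check the mutant's label. The part of a shared batch or of a wrong label in this closeness, and so in the overlap and the direct comparison, was not tested.

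The test of the difference between the effects called 123 genes (0.743%), 59 with a higher and 64 with a lower effect of SMIFH2, and 65 of the 123 were also called with SMIFH2. In 29 of these 65 the estimated fh1-1 effect had the opposite sign. This count was lower in every fit without 1 of the 8 arrays, and far below 123 in several of them. The parts of single arrays and of lost power in this were not tested. LHB1B2 and AT5G02180 kept the difference without any 1 of the 8 arrays. LHB1B2 rose by 1.54 with SMIFH2 and by 4.83 in fh1-1, a difference of -3.29 ± 0.26 (adjusted p = 0.0016). Its SMIFH2 arrays, both at 10.94, were close to the fh1-1 arrays at 10.88 and 10.80, and its control arrays at 9.31 and 9.49 were far above the wild type on solid medium at 5.77 and 6.26.

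AT5G02180 rose by 3.27 ± 0.15 with SMIFH2, from 3.71 and 3.82 to 7.04 and 7.05, and by 0.42 in fh1-1, from 5.67 and 5.85 to 6.12 and 6.24 (difference 2.85 ± 0.21, adjusted p = 0.0016). AT4G10860 was bright only in the liquid control, at 5.01 and 4.48, against 1.59 and 1.96 with SMIFH2 and 1.31 to 1.64 in the 4 arrays on solid medium. Its difference, -2.87 ± 0.30, missed the threshold without fh1-1 array 2 (adjusted p = 0.052). BGLU45, a beta-glucosidase, fell by 1.53 ± 0.17 on the log2 scale with SMIFH2 and rose by 0.90 in fh1-1, and its difference of -2.42 ± 0.24 was lost without the same array (adjusted p = 0.051). AT4G11210 rose by 1.74 ± 0.22 with SMIFH2 against -1.10 in fh1-1, a difference of 2.84 ± 0.31 lost without fh1-1 array 2 or SMIFH2 array 2. The other 7 genes of this group were AT4G12545, AT2G16005, AT4G11190 and AT4G12170, with positive differences of 2.61 to 2.21, and AT4G22520, AT4G12490 and AT1G63860, with negative differences of -2.38 to -2.25. Each of the 7 lost the difference without at least 4 of the 8 arrays, with highest adjusted p values from 0.083 to 0.16.

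**Figure D5:**
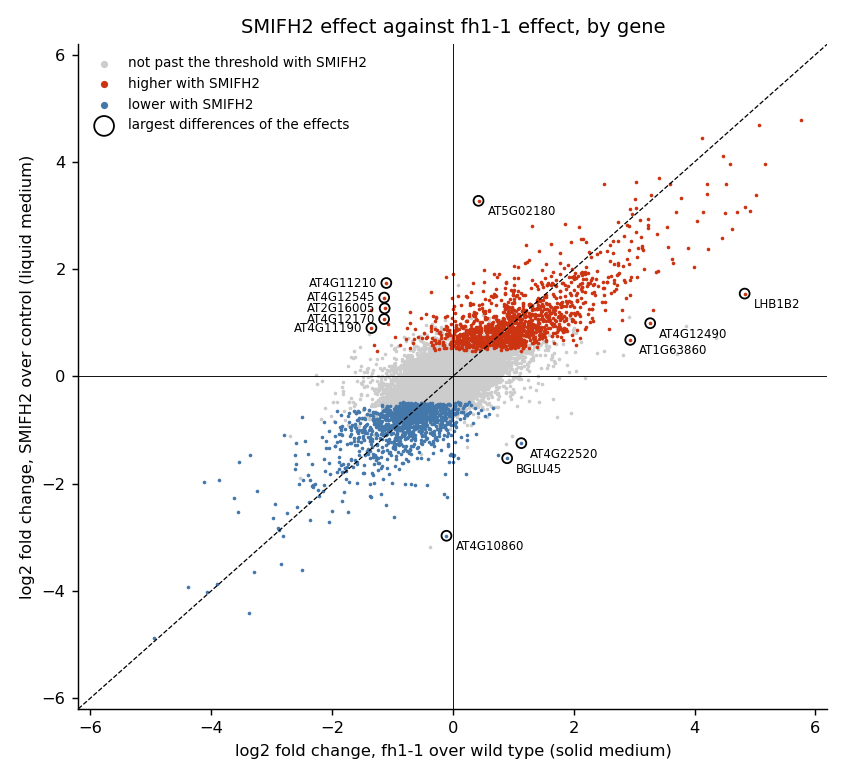
Log2 fold change of SMIFH2 over control in liquid medium (y axis) against that of fh1-1 over wild type on solid medium (x axis), 1 point per gene; red and blue points were called with SMIFH2, circles mark the 12 named genes with the largest differences, and the dashed line is equality. Of the genes called with SMIFH2, 69.9% were called in the same direction in fh1-1, and r was 0.744 over all genes (Spearman 0.594). LHB1B2, at 4.83 and 1.54, and AT5G02180, at 0.42 and 3.27, lie far from the line.

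A further 21662 probe sets had no gene or several genes in the annotation and were tested apart, and 1405 of them (6.49%) were called, 805 higher and 600 lower with SMIFH2. Their changes reached from -4.53 to 4.94, a wider range than that of the named genes at the upper end, where THI2.2 stood at 4.79.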

How the data were processed

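Total RNA of 8 seedling pools was hybridized to Affymetrix arrays, with labelling, hybridization and scanning by NASC, per the labels' protocols. The authors deposited RMA log2 values, made in Affymetrix Expression Console 1.4 and compared in Transcriptome Analysis Console 3.1, per the submitters' processing notes. RMA adjusts for background, sets the arrays to 1 distribution and gives 1 value per probe set, so levels are relative within this table. Of 38408 probe sets, 16746 were paired with 1 gene in the annotation given, 758 with several and 20904 were not listed. The brightest probe set was taken for the 163 genes with several, which left 16554 genes, of which 16418 matched the RefSeq annotation of TAIR10.1 (GCF_000001735.4), used for names and neighbours only; the sources used here do not give the array's build.

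Groups came from the sample titles. A linear model with 1 mean per group was fitted to all 8 arrays with limma 3.58.1 in R 4.3.3 (4 residual and 5.81 prior degrees of freedom), with Benjamini-Hochberg adjustment over all 16554 genes and a threshold of 0.05. The number of arrays limits the precision. The steps were tested on simulated data. The comparison, the gene lists and their members were chosen with earlier results of these data known. Genes named by rule were, among called genes whose arrays did not overlap, the 12 largest rises and 12 largest falls, up to 3 per list with the largest change, the 3 brightest in each direction, the formin loci, and the 6 largest differences from the fh1-1 effect in each direction among genes called in both tests; other genes were chosen after their values were seen. Across the 4 groups, arrays with the same repeat number did not deviate together (r = -0.055 to 0.014 over genes), and the main fit did not pair them. This check cannot exclude a pairing that acts on part of the genes. Promoter motifs were not analysed here. Matplotlib 3.10.9 (Python 3.11.15) drew the figures.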

Additional observations from a re-analysis of the deposited data

Results flagged for a closer look

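Of the 21662 probe sets that the annotation pairs with no gene or with several, 1405 passed an adjusted p of 0.05 in limma for SMIFH2 against control, 805 higher and 600 lower. They are noted because they lie outside the gene tests, and the SMIFH2 arrays differed there from the control arrays. Their changes ranged from -4.53 to 4.94 on the log2 scale. The transcripts they measure are not named here.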

How the results depend on the processing

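Genes called with SMIFH2 numbered 2459. They numbered 1181 at an adjusted p under 0.01, 916 with a 2-fold minimum, and 1250 to 2396 without 1 of the 8 arrays, a fit that leaves 1 array in its group, assumed to vary like the others. Higher genes, 1288, numbered 732 to 1268 without 1 array and 1960 over every probe set. Lower genes, 1171, numbered 518 to 1128. The 123 differences from the fh1-1 effect became 3 over every probe set, 296 with a trended robust prior, 77 with the repeat number as a block, and 2 to 117 without 1 array. With that block 2248 genes were called with SMIFH2. Higher genes of sulfur and iron supply, 5, numbered 3 to 5 without 1 array, and higher root markers, 4, numbered 0 to 3. Counts for photosystems (6 to 8), the NDH complex (7 to 8), carbon fixation (4), amino acid breakdown (5) and glucosinolates (2 to 3) stayed within 1.5 times of the reported value. The share of higher calls lay between 49.8% and 58.6%. No called gene named by the rule reversed its direction in 15 alternatives, while 152 of their values missed the threshold. Genes near 0 that were not called, 4 formin loci and many plastid genes among them, did turn sign. Alternatives included a fit of the 4 arrays alone (1776 calls), cyclic loess (2401), quantile normalization (2443), the mean of probe sets (2452) and omission of the dimmest genes (2754). Dim genes limit the comparison, since 1.98% of the lowest class were called.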

Other observations

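In 23 genes the mean changed at least 2-fold with SMIFH2 but no call was made, and in 21 of them the gap between arrays was wider in the control than in the SMIFH2 pools. GH9B15, an endoglucanase, stood at 8.34 in control array 1 and at 3.47 in control array 2, with the other 6 arrays between 2.30 and 3.40. AT1G58320 and PUB54, a U-box protein, were also high only in control array 1, at 4.78 and 5.13, with the other 7 arrays at 3.07 and 2.89 or lower. The neighbouring loci AT1G52060 and AT1G52050 showed the reverse, with 2.60 and 2.16 in control array 2 and at least 5.98 and 4.48 in each of the other 7 arrays. M17, of seed maturation, stood at 5.64 and 3.39 in the controls, 4.82 and 6.19 in wild type on solid medium, and 2.48 to 3.32 in the 4 arrays of SMIFH2 and fh1-1.

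More calls were lost without control array 1 than without control array 2, and more still without either SMIFH2 array. Each of these fits leaves 1 array in its group, so the influence of an array and the loss of power cannot be told apart.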
